A study of Glycine max with 42 samples.

Results

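Leaves of depodded soybean plants were compared with leaves of podded control plants at the last sampling number of a time course in Williams 82, a soybean cultivar. The comparison holds 6 of the 42 libraries of the study: 3 depodded and 3 control libraries whose titles carry the number 5. They were chosen by this number alone, and 29208 of the 38177 genes in the table were tested, those averaging 10 or more normalised counts across all 27 Williams 82 libraries. The labels conflict on when the depodded leaves were taken. The controls numbered 5 carry a time point label of day 76 after planting, whereas the depodded libraries numbered 5 are labelled day 64, the day that the controls numbered 4 carry; the depodded libraries numbered 4 are labelled day 76. Libraries were matched by title number throughout, and whether the leaves compared were of the same age was not tested.

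All libraries were made from total RNA of trifoliate leaves by RNA sequencing. Beside the groups numbered 5, the values used here come from depodded and control Williams 82 leaves numbered 4, from those numbered 3 (day 54) and 2 (day 45), and from initial Williams 82 leaves of day 38 at R2, a flowering stage, with 3 libraries each. A second table holds line T295H, from which sterile and control leaves of day 63 are used, also with 3 libraries each. Depodding removes the sink by hand and sterility limits it genetically. Separate plants are not named in the labels for the 3 libraries of any group, and the p-values therefore reflect only the spread among libraries, which may be technical.

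In a podded soybean plant the filling seeds draw sugars and amino acids from the leaves. Late in pod fill the leaf takes its photosynthetic proteins apart, exports the nitrogen and yellows. Plants whose pods are removed have a smaller sink, and their leaves are known to store protein and starch and to stay green longer. The gene IDs of the files were paired with a name for 0 of 38177 genes, so results are given by ID and by counts of genes, with no function attached. Gene positions and sequences were not used here, and markers of leaf or of other tissues were not analysed here. In whole leaves, fewer cells of a type and less RNA per cell cannot be told apart.

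The values are normalised counts, that is, gene counts divided by a size factor for each library. Libraries numbered 5 held 9520223 to 12483767 counts in depodded and 9441856 to 9776021 in control leaves. A count was detected for 34557 to 34726 genes in the depodded and 33224 to 34108 in the control libraries. The 10 most abundant genes took 11.4% to 17.8% of the normalised counts in the depodded libraries and 4.76% to 5.34% in the control libraries. Across the genes tested, Pearson's r of log2 values was 0.932 to 0.955 between depodded libraries, 0.912 to 0.931 between control libraries and 0.674 to 0.815 between a depodded and a control library. Control replicate 2 was the control library closest to each of the depodded ones.

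At number 5, 8265 of 29208 genes differed between depodded and control leaves (28.3%; limma, Benjamini-Hochberg adjusted p under 0.05). In depodded leaves 4601 genes were higher (15.8%) and 3664 lower (12.5%). The median log2 change was 1.79 among the higher genes, -1.64 among the lower genes and 0.04 among all genes tested. More than a doubling on the log2(value + 1) scale was seen for 3786 of the higher genes, and a change of more than 4 log2 units for 504. Among the lower genes, 2780 fell by more than 1 log2 unit and 325 by more than 4. In 7910 of the 8265 genes the libraries of the groups did not overlap. Over all genes, depodded libraries lay entirely above controls in 23.4% and entirely below in 20.3%. Without control replicate 1, which moved the counts most, 3455 genes were higher and 2644 lower.

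By level, the share called higher was largest among abundant genes. Of the 1522 genes that averaged 1000 or more in the 27 libraries, 459 were higher in depodded leaves (30.2%) and 233 lower (15.3%). Between 100 and 1000, the shares were close to each other, with 1923 of 12044 genes higher (16%) and 1967 lower (16.3%). Below 100, 2219 of 15642 genes were higher (14.2%) and 1464 lower (9.36%). These averages include the libraries compared, so the level of a gene is not independent of its call. The part of counting depth in these shares was not tested.

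A number of genes were near absent in one group and abundant in the other. There were 18 genes with a mean of at least 1000 in depodded leaves and under 10 in controls, all of them called higher. The reverse, a mean under 10 in depodded leaves and of at least 1000 in controls, held for 7 genes, all called lower. These means come from the libraries of the call, so such levels favour the calls and are a description. No count was found in any control library for 147 of the higher genes, of which 30 had a mean of at least 50 in depodded leaves. For 30 of the lower genes no depodded library held a count, and 17 of these had a control mean of at least 50. Genes that were not called could also lack counts in a group. The share of all genes tested without a count was not computed, so these numbers are a description.

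Glyma.07G115500 had the largest positive log2 change among the genes that met the naming rule. It stood at 13702, 14421 and 15859 normalised counts in the depodded libraries, against 1.73, 3.21 and 0 in the controls. All 3 depodded libraries lay close together, and the controls held 6 counts in all. Its log2 change was 12.66 (SE 0.82, limma adjusted p 8.3e-10), and the ratio of the means was 8896, with a 95% counting interval of 3044 to 43137. Depodded leaves averaged 6186 ± 6170 at number 2, 8648 ± 3270 at number 3, 10759 ± 7058 at number 4 and 14660 ± 1098 at number 5 (SD, n = 3 each). Controls averaged 2778 ± 2560, 274 ± 74.2, 42 ± 32.1 and 1.65 ± 1.61 at the same numbers, and initial leaves 1249 ± 778. Depodded and control libraries overlapped at number 2 and at no later number. At number 4, the depodded mean was 6741 without replicate 1 and the control mean 27.3 without replicate 2. In T295H it stood at 524, 266 and 859 in sterile leaves of day 63, while no control library of that day held a count.

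Glyma.06G084200 was the second of the higher genes. Its values were 11780, 2842 and 13444 in the depodded libraries and 0, 1.61 and 0 in the controls. Depodded replicate 2 was below the other depodded libraries and still far above every control, whose libraries held 2 counts in all. The log2 change was 12.44 (SE 0.76, limma adjusted p 5.0e-10). The ratio of the means, 17482, rests on those 2 counts, with a 95% counting interval of 3138 to 690485. Depodded leaves averaged 384 ± 337, 1224 ± 516, 1429 ± 608 and 9355 ± 5701 at numbers 2 to 5, against 679 ± 72.6, 171 ± 116, 8.01 ± 8.59 and 0.535 ± 0.927 in controls (SD, n = 3 each). Every depodded library numbered 5 lay above every library of initial leaves, which averaged 1034 ± 473. Sterile T295H leaves of day 63 held 648, 1025 and 1227, against 2.03, 0 and 0 in T295H controls.

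Among the lower genes, Glyma.07G056800 had the largest change. No count was found in any depodded library numbered 5, against 2506, 732 and 4465 normalised counts in the controls. With a floor of 3 pairs of counts per library it was at least 482-fold lower in depodded leaves. The limma log2 change of -10.98 (SE 1.32, adjusted p 2.2e-06) depends on the pseudocount. Its control mean of 2568 was 1619 without control replicate 3, the highest library. Depodded leaves numbered 3 and 4 and initial leaves also had no count, and the controls numbered 4 stood at 135, 3.97 and 48.4. Sterile T295H leaves of day 63 held 9.67, 4.98 and 2.81, against 7043, 7773 and 6584 in their controls.

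Glyma.17G128000 was the second lower gene. The depodded libraries stood at 0, 7.41 and 1.63, on 10 counts in all, against 5411, 1520 and 6509 in the controls. Control replicate 2 was the lowest of the controls, and the groups did not overlap. The log2 change was -10.39 (SE 1.93, limma adjusted p 0.000302), and the control mean was 1487 times the depodded mean, with a 95% counting interval of 637 to 4579. Among earlier depodded libraries, replicate 2 of number 2 stood apart, at 1263 beside 0 and 2.56. In T295H, sterile leaves of day 63 stood at 166, 184 and 266, and controls at 21289, 27037 and 25946.

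**Figure D1:**
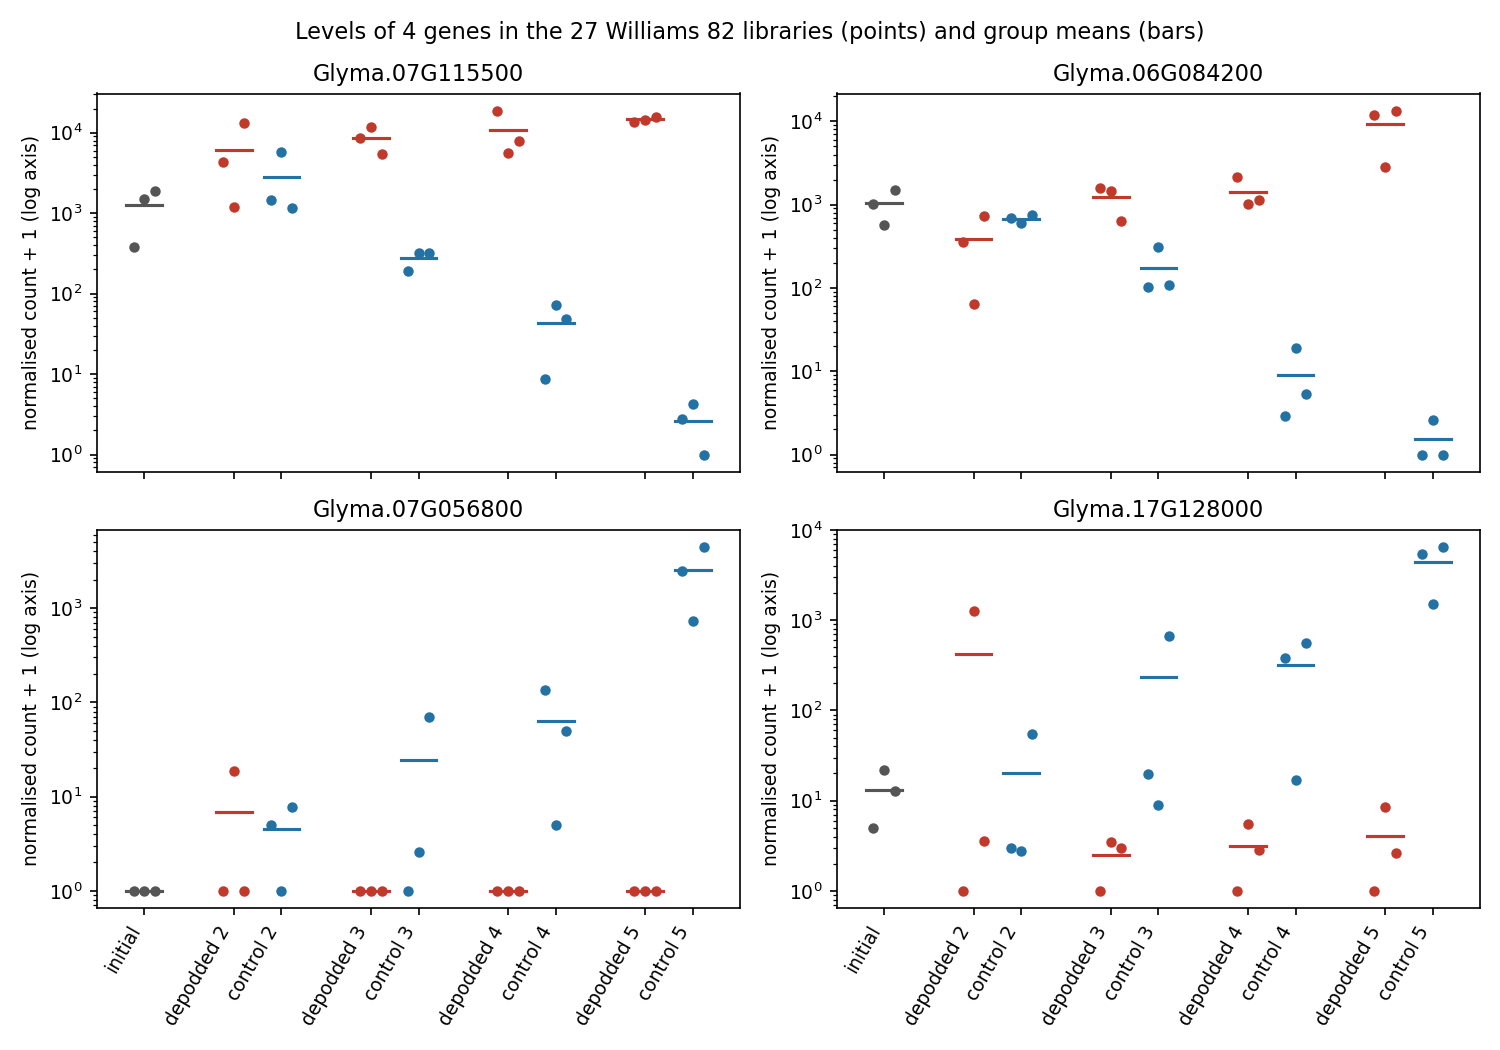
Normalised count + 1 on a log axis of the 4 named genes in the 27 Williams 82 libraries, by group in order of title number, with depodded groups in red, controls in blue and initial leaves in grey; points are libraries and bars are group means. The genes were picked for their change at number 5, and the groups of that number lie farthest apart. Glyma.07G115500 stood there at 13702 to 15859 in depodded and 0 to 3.21 in control libraries.

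The genes called at number 5 were then followed in the other Williams 82 libraries. These did not enter the difference tested, but they entered the estimate of the spread and the filter on low values. The share of a library's normalised counts that fell on the 4601 higher genes was 36.8% to 44.7% in depodded and 7.5% to 11.7% in control leaves numbered 5, which the call itself sets apart. At number 4 it was 33.3% to 33.8% in depodded and 16.1% to 21.8% in control leaves. At number 3 it was 31.4% to 38.1% and 19.3% to 21.8% in depodded and control leaves, again without overlap. At number 2, depodded leaves at 25.5% to 36.5% overlapped controls at 27.8% to 28.7%. Initial leaves held 30.2% to 40.9%.

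The 3664 lower genes ran the other way. They took 7.17% to 8.36% of the normalised counts in depodded and 24.5% to 33.2% in control leaves numbered 5. At number 4 the shares were 8.06% to 9.47% in depodded and 12.7% to 18.8% in control leaves, and at number 3 they were 7.84% to 8.68% and 13.8% to 16.1%. Depodded leaves at 11.4% to 13.5% and controls at 11.6% to 13.3% overlapped at number 2. In initial leaves the share was 6.47% to 11.7%. With 3 libraries against 3, an exact permutation test of such shares cannot go below a two-sided p of 0.10, and none is given.

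**Figure D2:**
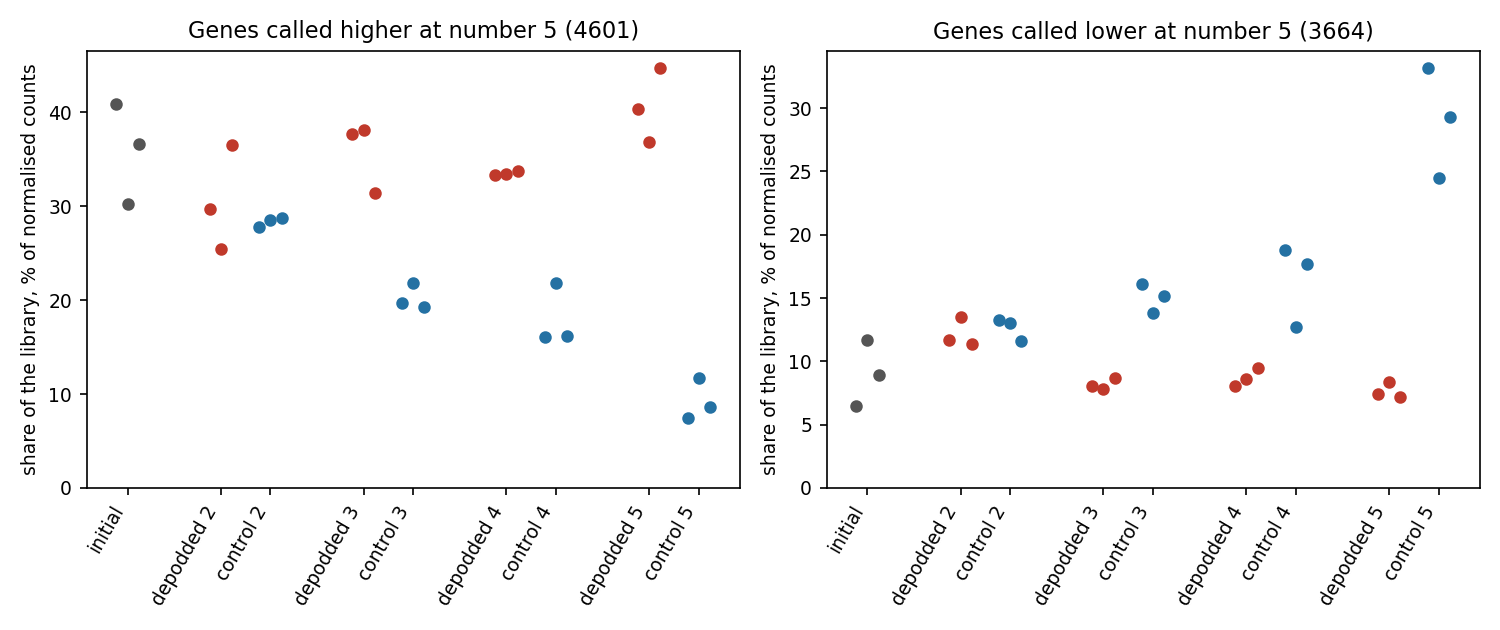
Share of each library's normalised counts, in percent, on the genes called higher (left) and lower (right) at number 5, by group in order of title number; points are libraries, with depodded in red, control in blue and initial in grey. The depodded and control groups overlap at number 2 and lie apart at numbers 3, 4 and 5.

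Control leaves numbered 5 lay entirely above or below the initial libraries in more of the called genes than depodded leaves did. Of the 4601 higher genes, depodded leaves numbered 5 overlapped the initial libraries in 2222 (48.3%), lay below all of them in 1146 (24.9%) and above all in 1233 (26.8%). Control leaves numbered 5 lay below every initial library in 3235 of these genes (70.3%) and above in 93. The most common pattern, in 1743 genes (37.9%), was depodded libraries that overlapped the initial ones and control libraries all below them. Depodded libraries all above the initial ones, with overlapping controls, were found in 794 genes (17.3%).

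Among the 3664 lower genes, depodded leaves overlapped the initial libraries in 2123 (57.9%), lay below them in 1112 (30.3%) and above them in 429 (11.7%). Control leaves lay above every initial library in 2165 (59.1%) and below in 108. Overlapping depodded libraries with controls all above the initial ones accounted for 1528 genes (41.7%), and depodded libraries all below with overlapping controls for 796 (21.7%). Over all 29208 genes, depodded libraries numbered 5 were entirely above or below the initial ones in 39.8% and control libraries in 46.1%. These positions reuse the libraries of the call and are a description.

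**Figure D3:**
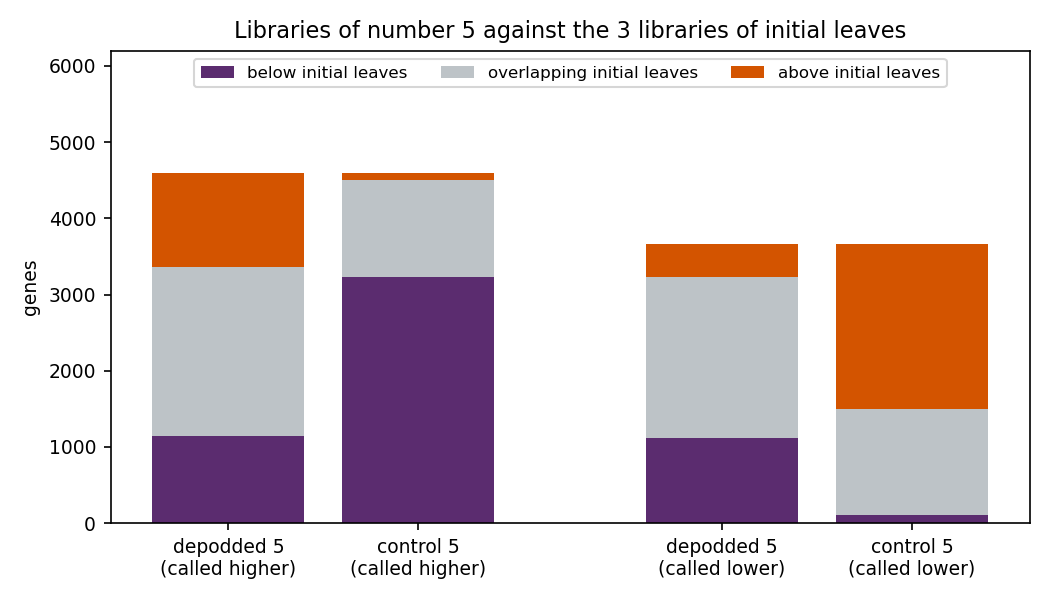
Number of genes called higher (left pair of bars) and lower (right pair) at number 5, split by whether the 3 depodded or the 3 control libraries lay below, overlapped or lay above the 3 libraries of initial leaves. Depodded leaves were below initial leaves in 1146 of the higher genes and above them in 429 of the lower genes, against 3235 and 2165 for control leaves.

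Some genes reached levels at number 5 that no other Williams 82 library had. In 738 genes (2.53%) all 3 depodded libraries numbered 5 lay above the other 24 libraries, and in 305 (1.04%) below them. Of the 738, 467 were called higher against control leaves, and 252 of the 305 were called lower. Over all genes 15.8% were called higher and 12.5% lower. The position fixes the direction of these calls and favours them, so they are a description. Initial leaves lay above all other libraries in 620 genes and below them in 285. For depodded leaves numbered 4 the counts were 254 above and 123 below. The controls numbered 5 lay above all other libraries in 971 genes and below them in 1336. In a principal component analysis of the 27 libraries, the third component (11.7% of the variance) placed depodded libraries numbered 5 at 132 to 143 and every other library between -81.4 and 48.3. On the first component (29.1%), depodded libraries numbered 5 stood between -13.1 and -1.46. The controls numbered 5 stood there between 123 and 172, overlapping the controls numbered 4 at 80.4 to 128. On the second component (21.8%), depodded libraries numbered 5 stood at -10.6 to 21.1, inside the range of the other libraries. The controls numbered 5 stood at 104 to 164 on it.

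The depodded and control groups numbered 4 share no library with those numbered 5, but both comparisons use 1 estimate of the spread from all 27 libraries, so their calls are not independent. There, depodded leaves had 2067 higher (7.08%) and 1733 lower genes (5.93%). Of the 4601 genes higher at number 5, 1221 were also higher at number 4, which is 26.5% of the first list and 59.1% of the second. Of the 3664 lower genes, 768 were lower at number 4, or 21% and 44.3% of the lists. Opposite calls were few, with 27 genes higher at number 5 and lower at number 4, and 20 the other way. The median log2 change at number 4 was 0.68 for the genes higher at number 5 and -0.59 for those lower at number 5. Single libraries numbered 4 moved these counts by more than 1.5 times. The shared higher and lower genes were 689 and 390 without depodded replicate 1 (of 966 and 787 called at number 4), 673 and 327 without control replicate 1 (of 990 and 681) and 739 and 390 without control replicate 3 (of 1113 and 751). Without depodded replicate 2, 1170 and 953 genes were called at number 4.

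Non-overlapping libraries gave a view of the earlier numbers with no threshold applied there. The genes viewed had passed the threshold at number 5, with a spread estimated from all 27 libraries. At number 4, depodded libraries lay above controls in 2203 of the 4601 higher genes (47.9%, against 20.4% of all genes) and below them in 1521 of the 3664 lower genes (41.5%, against 17.8%). At number 3, libraries were separated in the same direction in 2240 (48.7%, against 16.1%) and 1500 (40.9%, against 12.4%) genes. The threshold passed few genes there: 132 of the 4601 were called higher (2.87%, against 0.534% of all genes) and 65 of the 3664 lower (1.77%, against 0.346%). At number 2, libraries were separated in the same direction in 303 (6.59%, against 6.81%) and 320 (8.73%, against 6.34%) genes. The opposite order was seen at number 2 in 305 of the higher genes (6.63%) and 194 of the lower genes (5.29%). Limma called 1 gene higher (0.00342%) and 2 lower (0.00685%) at number 2, where 3046 genes had an unadjusted p under 0.05.

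The libraries of line T295H entered neither the fit nor the filter. Of the higher genes, 4404 had a mean of at least 10 in T295H, and in 3606 of them (81.9%) all sterile libraries of day 63 lay above all controls of that day. Over all 27751 genes tested here with a T295H mean of at least 10 this share was 30.1%. Sterile libraries lay below the controls in 55 of the higher genes. Among 3549 lower genes, sterile libraries lay below the controls in 2901 (81.7%, against 30.3% of all) and above them in 34. The tables were normalised separately, so only the order of libraries within T295H was used.

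Whether the effect itself differed between numbers 5 and 4 was tested as a difference of log2 changes. These are title numbers. By the time point labels, depodded leaves numbered 5 (day 64) came before those numbered 4 (day 76). The controls numbered 4 and 5 carry day 64 and day 76, in the other order. The effect was more positive at number 5 for 825 genes (2.82%) and more negative for 560 (1.92%), together 4.74% of all tested. Among the 825, the median log2 change was 1.79 at number 5 and -0.11 at number 4, and 683 were called higher at number 5. Among the 560, the medians were -1.61 at number 5 and 0.37 at number 4, and 435 were called lower at number 5. These medians and calls reuse the libraries of the test that picked the genes and are a description. Across all genes the log2 changes at the numbers had a Pearson's r of 0.631 and a Spearman's rho of 0.492, where genes are not independent replicates. Single libraries moved these counts by more than 1.5 times. The count of more positive genes was 507 without depodded replicate 2 of number 5, 326 without depodded replicate 3 of number 5 and 536 without control replicate 1 of number 5. It was 390 without depodded replicate 2 and 331 without control replicate 2 of number 4. The more negative genes numbered 192 to 349 without any 1 of these 5 libraries or without control replicate 3 of number 4.

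These differences were described in each arm, with the same libraries that picked the genes. Of the 825 genes, depodded leaves numbered 5 lay above those numbered 4 without overlap, with controls overlapping or in the other order, in 206 (25%). In 397 (48.1%) the controls numbered 5 lay below those numbered 4 and the depodded libraries did not separate in that direction. In 216 (26.2%) both held. For the 560 genes the counts were 137 (24.5%) for depodded leaves alone, 257 (45.9%) for controls alone and 164 (29.3%) for both. Over all genes, depodded leaves numbered 5 lay above those numbered 4 in 24% and below in 23.4%, and controls numbered 5 lay above those numbered 4 in 23.3% and below in 24.2%.

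**Figure D4:**
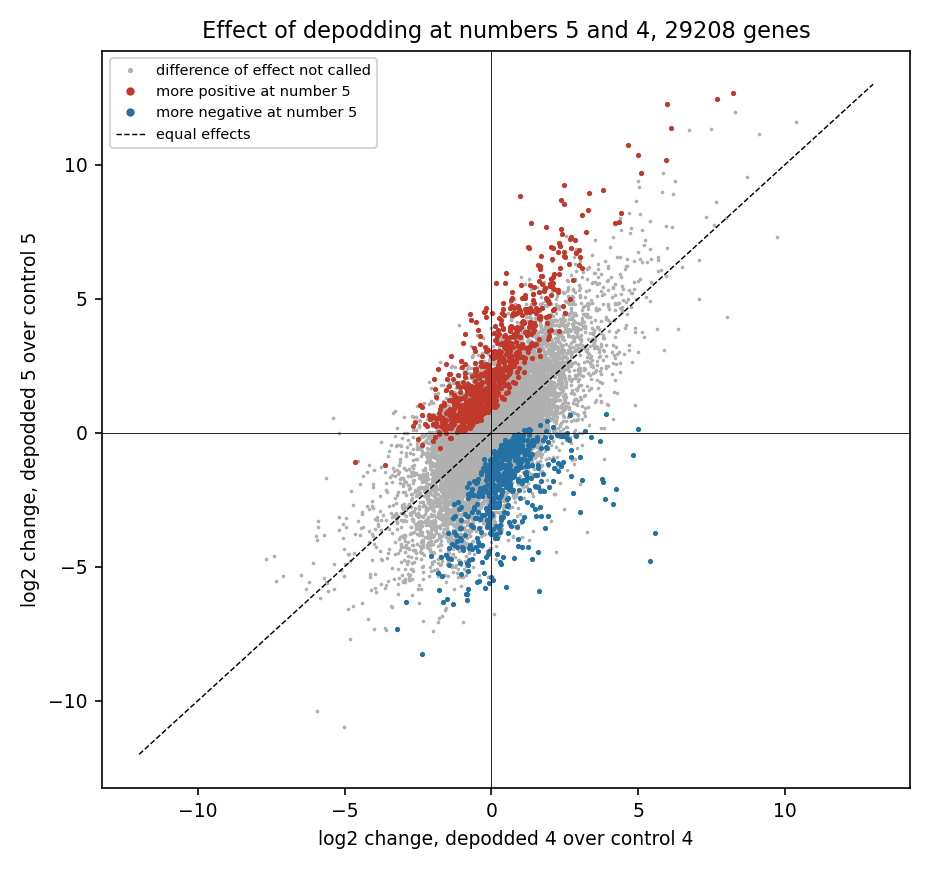
Log2 change of depodded over control leaves at number 5 (vertical) against that at number 4 (horizontal) for 29208 genes; red and blue points are the 825 and 560 genes whose change was more positive or more negative at number 5 (limma, adjusted p under 0.05), and the dashed line marks equal effects. The red points, picked by the difference of these same changes, have a median of 1.79 at number 5 and -0.11 at number 4.

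Examples of such genes were picked after values were seen: those with the largest difference of effect that were also called at number 5 in its direction, had depodded libraries numbered 5 apart from those numbered 4 in that direction, and averaged 50 or more in a group. On the positive side these were Glyma.04G255400 and Glyma.07G006900. Glyma.04G255400 stood at 2375, 1702 and 4249 in depodded leaves numbered 5, against 3.47, 40.1 and 0 in controls. At number 4 its values were 709, 298 and 724 in depodded leaves and 233, 349 and 244 in controls, so those groups overlapped. Its log2 change was 8.83 (SE 0.79) at number 5 and 0.98 (SE 0.79) at number 4, a difference of 7.85 (SE 1.12, limma adjusted p 0.00123). At number 5 the ratio of the means was 191, with a 95% counting interval of 131 to 290, and leaving out 1 library gave log2 changes of 7.57 (without control replicate 3) to 10.25 (without control replicate 2). Every depodded library numbered 5 was above the other 24 Williams 82 libraries, the highest of which, an initial one, stood at 802.

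Glyma.07G006900 was an abundant gene in most leaves. It stood at 40745, 27536 and 52310 in depodded leaves numbered 5 and at 34.7, 942 and 6.74 in controls. Control replicate 2 carried the control mean of 328, which was 20.7 without it. At number 4 the values were 22611, 23115 and 21262 in depodded and 3317, 9307 and 2093 in control leaves. The log2 changes were 9.25 at number 5 and 2.48 at number 4 (SE 0.95 each), a difference of 6.77 (SE 1.34, limma adjusted p 0.0076). The ratio of the means at number 5 was 123, with a 95% counting interval of 113 to 133, and edgeR gave a log2 change of 6.94, below that of limma. Limma's change at number 5 was 7.73 without control replicate 3 and 11.19 without control replicate 2. The control mean of number 4, 4906, was 2705 without replicate 2.

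On the negative side, the same rule gave Glyma.11G067700 and Glyma.20G091300, both of low level at numbers 5 and 4. Glyma.11G067700 had no count in depodded leaves numbered 5, against 41.6, 73.9 and 67.4 in controls, and was at least 11.4-fold lower. At number 4 it stood at 6.57, 8.95 and 1.84 in depodded and 1.92, 0 and 1.42 in control leaves. The difference of effect was -7.55 (SE 1.04, limma adjusted p 0.00102). Initial leaves held 87.3, 33.8 and 47.7 and overlapped the controls numbered 5.

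Glyma.20G091300 stood at 25.8, 1.85 and 11.4 in depodded and 57.2, 36.9 and 70.8 in control leaves numbered 5. At number 4 the order was turned, with 47.6, 35.8 and 34.9 in depodded and 1.92, 1.98 and 1.42 in control leaves. Its log2 change was -2.46 (SE 0.71, limma adjusted p 0.0119) at number 5 and 3.86 (SE 0.71, adjusted p 0.0013) at number 4. The call at number 5 was lost without depodded replicate 2, at a log2 change of -1.57 (adjusted p 0.109).

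**Figure D5:**
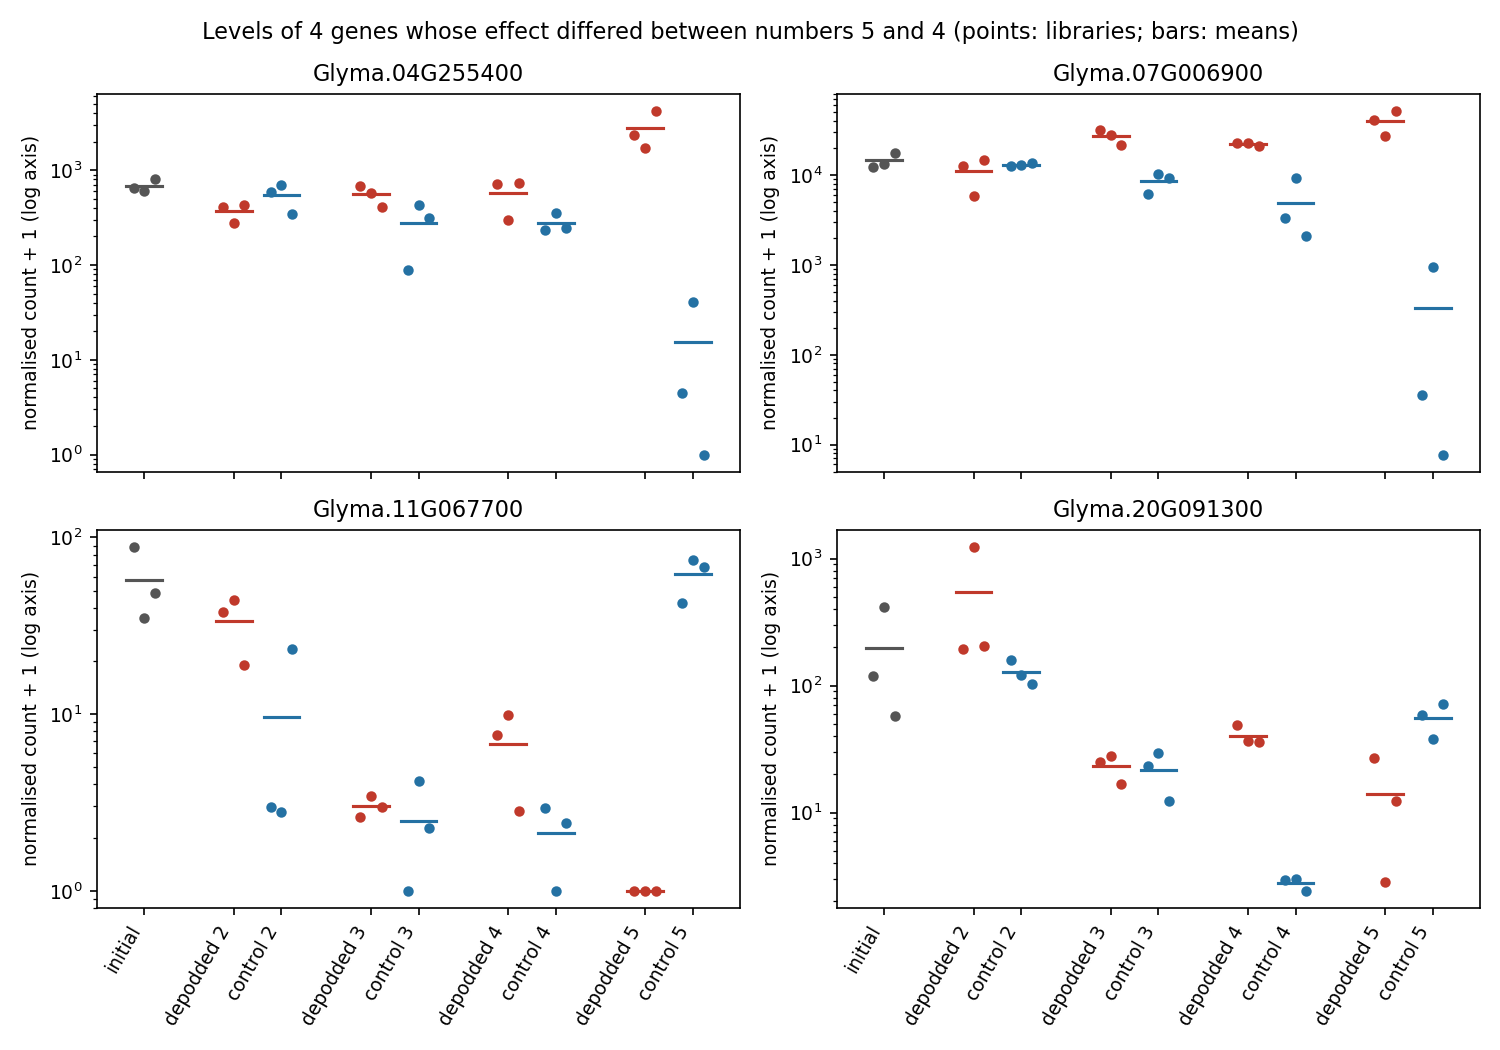
Normalised count + 1 on a log axis of 4 genes whose effect of depodding differed between numbers 5 and 4, by group in order of title number, with depodded groups in red, controls in blue and initial leaves in grey; points are libraries and bars are group means. The upper genes show depodded leaves numbered 5 above and controls numbered 5 below the groups of number 4, and the lower genes show controls numbered 5 above those numbered 4.

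The named genes were also set against the controls that share the time point label of the depodded libraries, day 64. With these controls the log2 change was 8.88 (SE 0.82) for Glyma.07G115500, 10.18 (SE 0.76) for Glyma.06G084200, -5.01 (SE 1.32) for Glyma.07G056800 and -5.76 (SE 1.93) for Glyma.17G128000. Each kept its direction and its call, with limma adjusted p-values of 9.9e-08, 8.5e-09, 0.00504 and 0.0233 in that order. Glyma.04G255400 and Glyma.07G006900 were higher by 3.25 (SE 0.79) and 3.28 (SE 0.95), Glyma.11G067700 lost its call at -0.94 (SE 0.73, adjusted p 0.334), and Glyma.20G091300 turned to 1.83 (SE 0.71, adjusted p 0.0489).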

How the data were processed

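Leaf RNA of soybean was sequenced by the authors, and Bowtie2 and DESeq2 appear in the submitters' processing notes, without a role. Versions, build, annotation, counting tool and strand use were not given in the sources used here. Deposited values are a signal per gene and library: each column holds whole multiples of 1 step, as gene counts divided by a size factor give. After division by this step, 100% of values were whole to within 0.01. Between 98.8% and 99.2% of recovered counts above 0 were even, so floors (3 pairs, or 6 counts, per library) and 95% intervals (exact Poisson, low group only) were computed on pairs and cover counting error only. Libraries of a group differed by more than sampling noise (lowest chi-square per degree of freedom 9.41).

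Limma 3.58.1 in R 4.3.3 was fitted to log2(value + 1) with a trend, on all 27 Williams 82 libraries in 9 groups, which share 1 estimate of the spread. Tests were two-sided with Benjamini-Hochberg adjustment over 29208 genes. The pseudocount understates the change of low genes, whereas averaging logs can put a change above or below the log2 ratio of the means. Alternatives used edgeR 4.0.16 and DESeq2 1.42.0 on recovered counts, and the pipeline was tested on simulated data. None of 59048 RefSeq genes (Glycine_max_v4.0) carried an ID of the table, so gene lists by product name were not applied. Named genes were the 2 higher and 2 lower genes of largest change among those called, averaging 50 or more in the higher group and with libraries that did not overlap. Another 4 were chosen after the data were seen. Groups, rules and tests were chosen with earlier results of these data known. Near-identical copies, overlapping genes and antisense partners could not be told from the IDs, and the levels of named genes are uncertain to that extent.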

Additional observations from a re-analysis of the deposited data

Results flagged for a closer look

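Effects of depodding that differed between numbers 5 and 4 by the test of the difference were marked for a closer look. The effect was more positive at number 5 in 825 genes, and more negative there in 560. Glyma.07G115500, Glyma.06G084200, Glyma.07G056800 and Glyma.17G128000 were picked by their change at number 5, a term of the difference, and the others by the difference. Their values here therefore reuse the libraries that picked them, which favours large differences, and are a description. Glyma.07G115500 and Glyma.06G084200 had differences of 4.43 (SE 1.16, limma adjusted p 0.0301) and 4.77 (SE 1.07, limma adjusted p 0.0142), with depodded leaves higher than controls in all 3 libraries at each number. The difference was 7.85 for Glyma.04G255400 and 6.77 for Glyma.07G006900. It was -7.55 for Glyma.11G067700 and -6.32 for Glyma.20G091300. The depodded libraries of Glyma.20G091300 were all above the controls at number 4 and all below them at number 5. For Glyma.07G056800 the difference of -5.97 (SE 1.86) did not pass the threshold (limma adjusted p 0.064), nor did that of Glyma.17G128000, at -4.46 (SE 2.73, adjusted p 0.352).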

How the results depend on the processing

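The counts of 4601 higher and 3664 lower genes at number 5 stayed within 1.5 times under every alternative run: a pseudocount of 5, no filter, a mean of at least 50, TMM scaling, a fit of only the groups compared, the other tools and counts halved (added after the data were seen), and controls of the same time point label, which gave 5572 and 4873. Apart from the named genes, only counts were compared, and whether the controls of the same label gave the same genes was not tested. The test of the difference between numbers was not run with controls matched by label. Leaving out 1 library gave 3455 to 4461 higher and 2644 to 3360 lower genes at number 5. The difference between numbers 5 and 4 was less stable: 326 to 1039 more positive and 192 to 578 more negative genes when 1 library was left out, 1603 and 1313 with DESeq2, and 1428 and 1168 with DESeq2 on halved counts; the cause was not tested.

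With the replicate number as a block, 4580 genes were higher and 3621 lower at number 5, and 790 and 546 differed in effect. Deviations of same-numbered depodded and control libraries had correlations of -0.256, -0.137 and -0.0749, so the numbers were not taken as pairs, and no library correlated best with its own number.

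The log2 change of Glyma.20G091300 turned to 1.83 with controls of the same label, and 3 alternatives ended its call: fitting the compared groups alone (adjusted p 0.0543), edgeR on halved counts (0.0541) and leaving out depodded replicate 2 of number 5 (0.109, the highest). The difference of effect of Glyma.07G115500 lost its call in 10 of 22 alternatives (adjusted p up to 0.0969), which were pseudocount 5, edgeR on halved counts, and leaving out replicate 2 or 3 of depodded 4, of depodded 5 or of control 4, or replicate 1 or 3 of control 5; that of Glyma.06G084200 was lost without control replicate 2 of number 4 (0.0525), and that of Glyma.07G056800 gained one in 3. Genes with few counts in a group limit how far a fold can be stated.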
